A study of Yarrowia lipolytica with 4 samples.

Results

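Acyl-CoA oxidases catalyse the first step of peroxisomal beta-oxidation, in which a double bond is put into the fatty acyl chain and oxygen is reduced to hydrogen peroxide. The multifunctional enzyme MFE1 then adds water across that bond and oxidizes the product, and the 3-ketoacyl-CoA thiolase POT1 splits off acetyl-CoA, so that the shortened chain can enter another round. The oil-storing yeast Yarrowia lipolytica carries a family of oxidase isozymes with different chain-length preferences and is known for growth on alkanes, fatty acids and oils. The 8 genes described here are the oxidase genes POX1 to POX6, MFE1 and POT1. They were chosen by gene identifier, and all 8 were found among the 6447 protein-coding genes held in both deposited tables. The annotation text names POX1 to POX5, the multifunctional enzyme and the peroxisomal thiolase outright. It describes YALI0_E06567g, called POX6 here, as similar to POX2. These were the only 6 genes annotated as acyl-CoA oxidases.

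RNA-seq libraries were made from 2 strains of the laboratory background PO1f. The sur2 deletion strain (ku70Δ::tc sur2Δ::LEU2) lacks the C4-hydroxylase of sphingoid bases and carries LEU2 in its place, and the parent strain (ku70Δ::tc), labelled wild type, has SUR2. Both strains therefore carry the disruption of KU70, and loss of SUR2 cannot be told apart from gain of LEU2. Cultures in YPD, a rich glucose medium, were kept at 28 °C and taken at an OD600 of 0.8. There were 2 libraries per strain, and the labels do not say that they came from separate cultures or transformants. The p-values therefore reflect differences between libraries that may be technical. Each deposited table, 1 of transcripts and 1 of genes, held 1 library of each strain. The spread between the 2 libraries of a strain therefore includes any difference between the tables. The libraries held 8765729 to 16698719 reads. SUR2 (YALI0_E17347g) had 0 and 0 reads in the deletion libraries, against 1402 and 1319 reads in the parent libraries, as the labels state. Levels between genes are given as TPM (transcript abundance scaled by the authors for gene length and to a fixed library total) and strains are compared as CPM (reads scaled by the effective library size). In each pair of values the library of the transcript table comes first and that of the gene table second. Values after ± are standard deviations over 2 libraries for levels and approximate standard errors for log2 fold changes. The latter were derived from the fold change and the F statistic of the quasi-likelihood test in edgeR.

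POX3 and POX2 were the main oxidase transcripts in every library. POX3 (YALI0_D24750g, chromosome D, 3291579 to 3293681), annotated as specific for short-chain substrates, stood at 95.4 and 197 TPM in the sur2 deletion libraries and at 109 and 47.7 TPM in the parent libraries. POX2 (YALI0_F10857g, chromosome F, 1449289 to 1451391) stood at 37.5 and 95.4 TPM in the deletion libraries and at 64.4 and 29.6 TPM in the parent libraries. The 2 genes ranked first and second among the oxidases in all 4 libraries, and for each of them the 2 strains overlapped.

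POX5 (YALI0_C23859g, chromosome C, 3195532 to 3197631) was at 6.34 and 10.5 TPM in the deletion libraries and at 25.1 and 11.7 TPM in the parent libraries. Its deletion values both lay below its parent values. POX6 (YALI0_E06567g, chromosome E, 754245 to 756314) was at 6.15 and 12.7 TPM in the deletion libraries and at 9.34 and 3.10 TPM in the parent libraries. POX4 (YALI0_E27654g, chromosome E, 3264045 to 3266150) was at 5.79 and 6.85 TPM in the deletion libraries and at 7.04 and 4.53 TPM in the parent libraries. POX4 varied least of the 8 genes, and the strains overlapped in TPM for both POX4 and POX6. POX1 (YALI0_E32835g, chromosome E, 3897102 to 3899135), annotated as specific for dicarboxylic acids, was the lowest oxidase in all 4 libraries. It had 63 and 46 reads in the deletion libraries and 105 and 49 reads in the parent libraries, or 1.24 and 1.87 TPM and 1.98 and 0.99 TPM.

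The 2 later enzymes were transcribed at levels near those of the main oxidases. MFE1 (YALI0_E15378g, chromosome E, 1829460 to 1832239) reached 128 and 364 TPM in the deletion libraries, against 101 and 64.9 TPM in the parent libraries. It was the highest of the 8 genes except in the parent library of the transcript table, where POX3 was higher. POT1 (YALI0_E18568g, chromosome E, 2210886 to 2212130) was at 33.8 and 174 TPM in the deletion libraries and at 46.5 and 42.0 TPM in the parent libraries. The deletion library of the gene table therefore held the highest value of MFE1, POT1, POX2, POX3 and POX6. Of the 8 genes, 5 lie on chromosome E, and none overlapped another annotated feature. The nearest neighbour of any of them was 251 bases away.

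**Figure D1:**
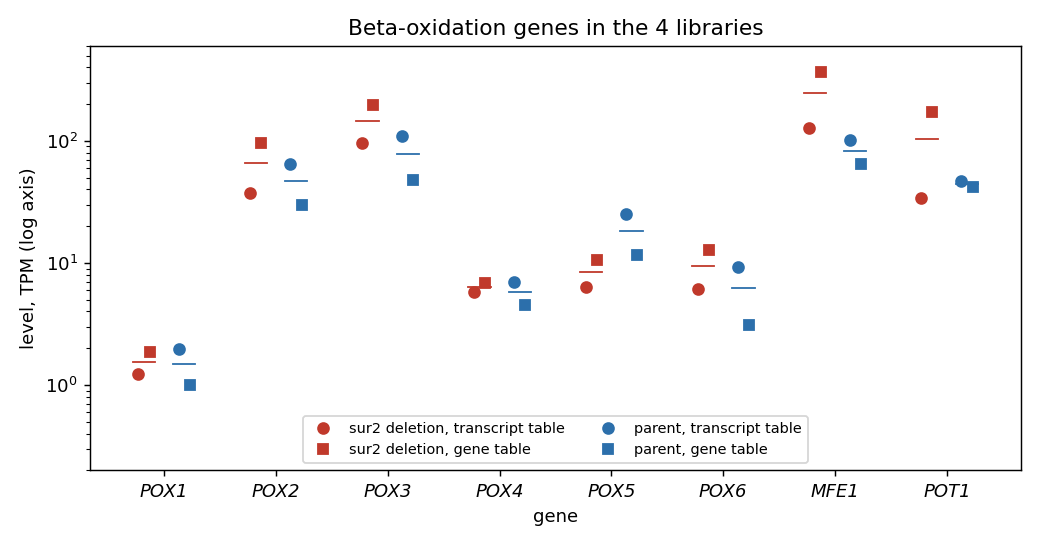
Level of each gene in TPM (log axis) in the 2 sur2 deletion libraries (red, left) and the 2 parent libraries (blue, right), with circles for the transcript table, squares for the gene table and lines for strain means. POX3 and POX2 lie above the other oxidases in every library, and the deletion library of the gene table is highest for MFE1 at 364 TPM.

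By mean level in the deletion strain the order was MFE1 (246 ± 167 TPM), POX3 (146 ± 72.2), POT1 (104 ± 99.2), POX2 (66.5 ± 40.9), POX6 (9.43 ± 4.63), POX5 (8.41 ± 2.93), POX4 (6.32 ± 0.750) and POX1 (1.56 ± 0.445), with n = 2 each. In the parent it was MFE1 (83.0 ± 25.6 TPM), POX3 (78.5 ± 43.7), POX2 (47.0 ± 24.6), POT1 (44.3 ± 3.17), POX5 (18.4 ± 9.46), POX6 (6.22 ± 4.41), POX4 (5.79 ± 1.77) and POX1 (1.49 ± 0.700), also with n = 2 each. MFE1 and POX3, POX2 and POT1, and POX6 and POX4 changed places between libraries and did not differ beyond their spread. POX5 was above POX6 in both parent libraries and in the deletion library of the transcript table, but below it in the deletion library of the gene table. Set among all protein-coding genes, POX1 lay at percentiles 9.69 to 13.3 of TPM in the 4 libraries, POX3 at percentiles 69.4 to 85.2 and MFE1 at percentiles 75.1 to 92.2.

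Between the strains, which differ in the replacement of SUR2 by LEU2, 0 of the 8 genes passed the threshold. A gene passed at an adjusted p under 0.05 (Benjamini-Hochberg over 6051 genes, quasi-likelihood test of edgeR, two-sided). Over all tested genes 1.24% passed, 0.992% higher and 0.248% lower in the deletion strain. At an unadjusted p under 0.05 there was 1 of the 8, POX5, against 12.4% of all tested genes. The log2 fold changes were above 0 for 5 genes and below 0 for 3, with a median of 0.18 over the 8 genes and of 0.03 over all tested genes. The libraries are bulk RNA, so fewer cells with a transcript and less of it per cell cannot be told apart.

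POX5 had the lowest p of the 8. It was at 19.5 and 27.3 CPM in the deletion libraries and at 80.4 and 50.8 CPM in the parent libraries. The strains did not overlap, with means of 23.4 ± 5.53 CPM in the deletion strain and 65.6 ± 20.9 CPM in the parent, and the log2 fold change was -1.49 ± 0.41 (adjusted p = 0.172, edgeR). DESeq2 called POX5 lower (log2 fold change -1.50, adjusted p = 0.0286), where 6.38% of all tested genes were called and 2.05% were called lower. Without the deletion library of the gene table edgeR called it too (-1.75, adjusted p = 0.0312), where 3.34% of genes were called and 0.819% were called lower, and over all alternatives its adjusted p ran from 0.0286 to 0.731.

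MFE1 was at 522 and 1255 CPM in the deletion libraries and at 428 and 374 CPM in the parent libraries. The strains did not overlap, but the deletion libraries differed from each other by 1.27 on the log2 scale, which exceeds the log2 fold change between strains of 1.15 ± 0.52 (adjusted p = 0.426, edgeR). With the transcript-table deletion library left out the log2 fold change was 1.64 and MFE1 passed in edgeR (adjusted p = 0.0191), where 11.2% of genes were called and 7.31% were called higher. With that of the gene table left out it was 0.38, and over all alternatives the adjusted p of MFE1 ran from 0.0191 to 0.979.

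POT1 was at 56.9 and 246 CPM in the deletion libraries and at 82.1 and 99.6 CPM in the parent libraries. The deletion libraries stood on either side of the parent libraries, 2.11 apart on the log2 scale. Its log2 fold change was 0.74 ± 0.61 (adjusted p = 0.719, edgeR). It was 1.43 with the transcript-table deletion library left out. It was -0.68 with the gene-table deletion library left out, so the sign rested on that library.

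Among the other oxidases, POX3 was at 294 and 515 CPM in the deletion libraries and at 352 and 208 CPM in the parent libraries (log2 fold change 0.53 ± 0.47, adjusted p = 0.747, edgeR). Its level in the deletion libraries lay on both sides of the transcript-table parent. POX2 was at 116 and 249 CPM in the deletion libraries and at 207 and 129 CPM in the parent libraries (log2 fold change 0.12 ± 0.47, adjusted p = 0.962, edgeR). POX6 was at 18.6 and 32.5 CPM in the deletion libraries and at 29.5 and 13.3 CPM in the parent libraries, with a log2 fold change of 0.25 ± 0.52. For these 3 genes the strains overlapped, and without either gene-table library the fold changes of POX2 and POX6 fell below 0, to -0.54 and -0.20 without the deletion library and to -0.18 and -0.20 without the parent library.

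POX4 was at 17.9 and 17.9 CPM in the deletion libraries and at 22.7 and 19.8 CPM in the parent libraries, with a log2 fold change of -0.25 ± 0.41. POX1 was at 3.68 and 4.71 CPM in the deletion libraries and at 6.12 and 4.14 CPM in the parent libraries, with a log2 fold change of -0.30 ± 0.60. POX4 did not overlap between strains in CPM, but it did in TPM, and with limma on TPM the fold changes of POX4 and POX1 were above 0, at 0.13 and 0.058, where the median over all tested genes was 0.39. In CPM the strains did not overlap for 3 of the 8 genes, against 42.3% of all tested genes. The deletion strain was the higher one for 1 of them, MFE1, against 22.1%, and the lower one for 2, POX5 and POX4, against 20.2%.

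For 5 of the 8 genes the direction depended on the table within which the strains were compared. Of the 8 genes, 7 were lower in the deletion library than in the parent library of the transcript table, against 50.7% of all tested genes. Within the gene table, 6 of the 8 were higher in the deletion library, against 52.6% of all tested genes. The median log2 ratio of the 8 genes was -0.60 in the transcript table, where that of all tested genes was -0.01. In the gene table it was 1.12, where that of all tested genes was 0.05. With 1 library per strain in each table there is no replicate check of these ratios.

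POX1, POX2, POX3, POX6 and POT1 were lower in the transcript table and higher in the gene table, 5 of the 8 genes, against 22.8% of all tested genes. POX2 was at 0.559 times the parent level in the transcript table (95% exact binomial counting interval 0.529 to 0.591) and at 1.93 times in the gene table (1.81 to 2.06). POX3 was at 0.836 times the parent level in the transcript table (0.805 to 0.868) and at 2.48 times in the gene table (2.36 to 2.60). POX6 was at 0.632 times (0.547 to 0.728) and at 2.45 times (2.02 to 2.99). These intervals cover counting error only, and for POX2, POX3 and POX6 counting error was smaller than the distance between the tables. For POX1 the interval in the gene table, 0.743 to 1.73, spanned equal levels.

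POX5 and POX4 were lower in both tables, as were 27.8% of all tested genes, and MFE1 was higher in both, as were 29.7%. POX4 was at 0.788 times the parent level in the transcript table (0.676 to 0.917). In the gene table it was at 0.905 times, and the interval there, 0.740 to 1.11, spanned equal levels. POX5 was at 0.243 times the parent level in the transcript table (0.215 to 0.273), at percentile 0.925 among tested genes, and at 0.538 times in the gene table (0.464 to 0.622), at percentile 13.8. MFE1 was at 1.22 times the parent level in the transcript table (1.18 to 1.26), at percentile 67.6, and at 3.36 times in the gene table (3.24 to 3.48), at percentile 92.7. In the gene table MFE1, POX3, POX6 and POT1 were at least 2-fold higher, 4 of the 8 genes, against 16.0% of all tested genes, and 0 of the 8 were at least 2-fold lower, against 11.6%. In the transcript table none of the 8 was at least 2-fold higher, against 11.0%, and POX5 alone was at least 2-fold lower, against 5.7%.

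**Figure D2:**
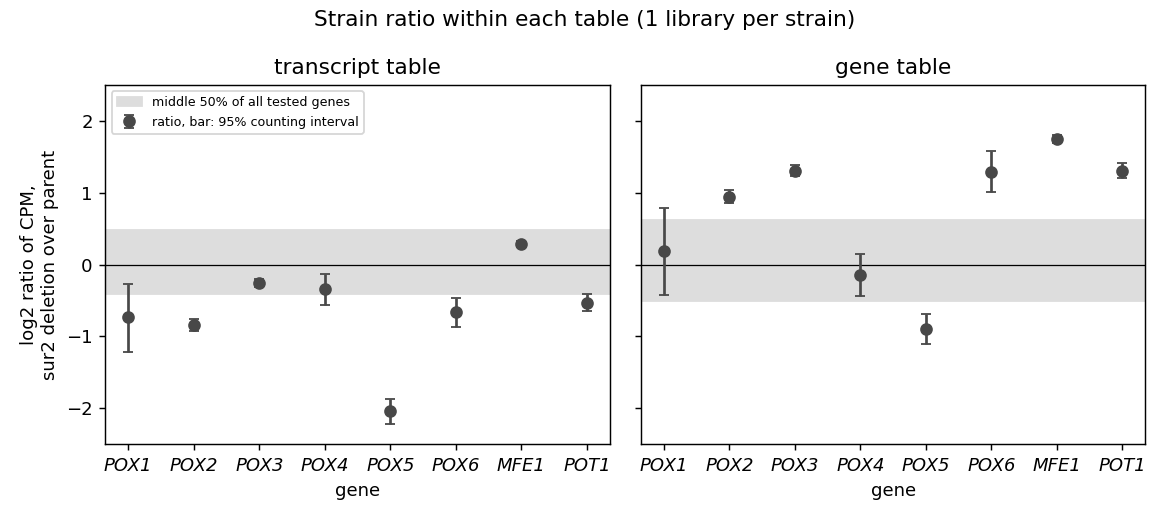
Log2 ratio of CPM in the sur2 deletion library over the parent library within the transcript table (left) and the gene table (right), with 95% counting intervals and the interquartile range of all tested genes in grey. POX5 is low in both panels, at 0.243 and 0.538 times the parent level, while POX2, POX3, POX6 and POT1 lie below 0 on the left and above 0 on the right.

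The scaling mattered more in the gene table than in the transcript table. Under library totals in place of the trimmed mean (TMM) factors the median log2 ratio of all tested genes was 0.44 in the gene table, and in TPM it was 0.79. POX4 in the gene table was at a log2 ratio of -0.14 with TMM factors but at 0.25 and 0.60 on those scales, which is below the median of all genes on each. Of the 8 genes, 5 were at least 2-fold higher there under library totals, against 25.8% of all tested genes, and 5 were in TPM, against 40.1% of the tested genes with a TPM ratio. POX5 stayed below 0 in the gene table under all 4 scalings, at -0.89 with TMM factors, -0.92 with DESeq2 size factors, -0.50 with library totals and -0.15 in TPM. In the transcript table the signs of all 8 genes were the same under the 4 scalings. Cytosolic ribosomal protein genes, 81 by their annotation, summed to 281914 and 191366 TPM in the deletion libraries and to 361105 and 409560 TPM in the parent libraries. Of the 80 tested, 0 passed in edgeR, against 1.24% of all tested genes, and 41 had an unadjusted p below 0.05, against 12.4%. Their median log2 fold change was -1.18, where that of all tested genes was 0.03. Since TPM values of a library add up to a fixed total, these sums move with the TPM of the other genes, and their part in the levels of the 8 genes was not tested.

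Shares within the oxidase family do not depend on how a library is scaled. The share of POX3 did not overlap between strains although its level did, that of POX5 did not overlap in either measure, and that of POX4 overlapped although its CPM did not. POX3 made up 62.6% and 60.8% of the summed TPM of POX1 to POX6 in the deletion libraries, against 50.4% and 48.8% in the parent libraries. POX5 made up 4.16% and 3.23% in the deletion libraries, against 11.5% and 12.0% in the parent libraries. POX3 thus held a larger share, and POX5 a smaller share, in both deletion libraries than in both parent libraries. For these shares the libraries of each strain lay close together. The mean shares were 61.7% ± 1.26 in the deletion strain and 49.6% ± 1.09 in the parent for POX3, and 3.69% ± 0.656 and 11.7% ± 0.304 for POX5 (SD, n = 2 each).

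POX2 made up 24.6% and 29.4% in the deletion libraries and 29.6% and 30.4% in the parent libraries. The share of POX2 did not overlap between strains, but the gap between them was smaller than that between the deletion libraries. POX1 held 0.813% and 0.576% in the deletion libraries, against 0.912% and 1.01% in the parent libraries. POX4 held 3.80% and 2.11% in the deletion libraries and 3.24% and 4.64% in the parent libraries, and POX6 held 4.03% and 3.91% in the deletion libraries and 4.30% and 3.18% in the parent libraries. Strains overlapped for POX4 and POX6. With 2 libraries per strain a two-sided exact permutation test cannot give a p below 0.333, which was its value for POX1, POX2, POX3 and POX5 (0.5 after Benjamini-Hochberg adjustment over 6 shares), so no difference in share could pass.

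**Figure D3:**
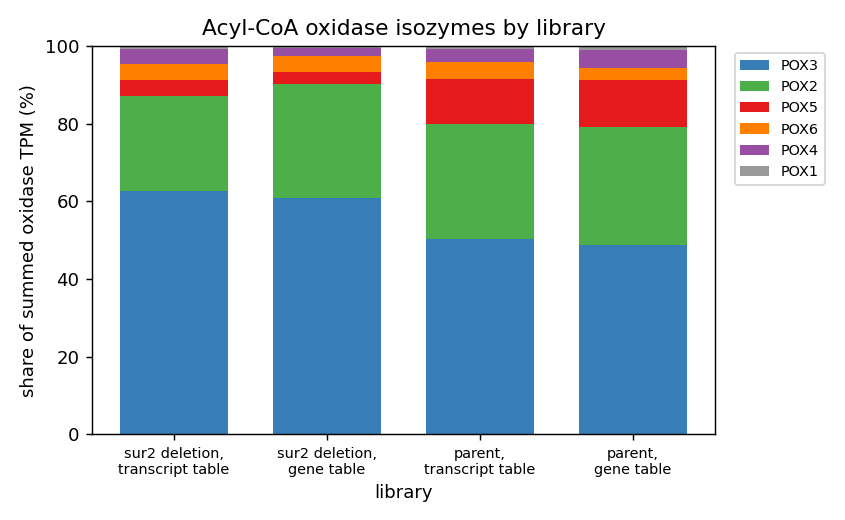
Share of each isozyme in the summed TPM of POX1 to POX6, in percent, in the 2 sur2 deletion libraries (left) and the 2 parent libraries (right). POX5 takes 4.16% and 3.23% in the deletion libraries and 11.5% and 12.0% in the parent libraries, and POX3 takes the largest share in all 4.

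Ratios between the oxidases restate the shares above one pair at a time, so they add no separate evidence. POX3 was 15.1 and 18.8 times as abundant as POX5 in the deletion libraries, and 4.37 and 4.08 times as abundant in the parent libraries. POX2 was 5.92 and 9.10 times as abundant as POX5 in the deletion libraries, and 2.57 and 2.54 times in the parent libraries. The POX3 to POX2 ratio differed less, at 2.54 and 2.07 in the deletion libraries and 1.70 and 1.61 in the parent libraries. All 3 ratios were higher in both deletion libraries than in both parent libraries.

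Summed over the 6 oxidases the level was 152 and 325 TPM in the deletion libraries and 217 and 97.5 TPM in the parent libraries, and the strains overlapped. The ratio of MFE1 to this sum was 0.842 and 1.12 in the deletion libraries, against 0.466 and 0.665 in the parent libraries, without overlap. That of POT1 to the sum was 0.222 and 0.536 in the deletion libraries and 0.214 and 0.431 in the parent libraries. It differed more between the tables than between the strains. These ratios were chosen after the values were seen and were not tested.

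The other genes of the pathway were grouped into 6 lists of 30 genes, all tested. With edgeR 1 of them passed after adjustment over all genes and was higher in the deletion strain. Of all tested genes 1.24% passed, 0.992% higher in the deletion strain. At an unadjusted p under 0.05 there were 4 of the 30, against 12.4% of all tested genes, which is close to that background. The gene that passed was YALI0_F01650g, weakly similar to the Saccharomyces cerevisiae 2,4-dienoyl-CoA reductase SPS19, an auxiliary enzyme for unsaturated chains. It had 924 and 1052 reads in the deletion libraries and 24 and 41 reads in the parent libraries (log2 fold change 5.07 ± 0.62, adjusted p = 0.0147, edgeR). Both tables showed it, with log2 ratios of 5.24 and 4.94. Without the transcript-table or the gene-table parent library its log2 fold change was 4.50 and 5.85 and it did not pass (adjusted p = 0.481 and 0.432, edgeR), where 0.0% of tested genes passed. Over all alternatives its adjusted p ran from 4.45e-21 to 0.481.

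The other 8 genes of the list of further beta-oxidation enzymes did not pass, and the median log2 fold change of its 9 genes was 0.29. The SPS19-like genes YALI0_D01694g and YALI0_E14322g were at 1.48 ± 0.70 and 0.84 ± 0.42. A further SPS19-like gene, YALI0_C03003g, was at 0.29 ± 0.44 and overlapped between strains, with log2 ratios of -0.42 and 0.74 in the 2 tables. YALI0_D01694g was a low gene, with 47 and 56 reads in the deletion libraries and 27 and 17 reads in the parent libraries. The acetoacetyl-CoA thiolase gene YALI0_E11099g was at 432 and 444 CPM in the deletion libraries and at 768 and 786 CPM in the parent libraries. Its libraries lay close together within each strain, and the log2 fold change was -0.83 ± 0.40 (adjusted p = 0.473, edgeR).

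Fatty acid activation and import into peroxisomes showed 0 of 5 genes past the test in edgeR, against 1.24% of all tested genes. At an unadjusted p under 0.05 there were 0, against 12.4%, and the median log2 fold change was 0.09. The fatty acyl-CoA synthetase gene FAT1 (YALI0_E16016g) was at 0.85 ± 0.44. The peroxisomal transporter genes PXA1 (YALI0_A06655g) and PXA2 (YALI0_D04246g), similar to the S. cerevisiae transporter subunits, were at -0.19 ± 0.42 and 0.09 ± 0.36. YALI0_E03058g was at 0.66 ± 0.38. It was listed by its identifier, and its annotation names only a possible transmembrane segment. Of the 5 genes, 3 were lower in the deletion library of the transcript table and higher in that of the gene table, against 22.8% of all tested genes. PXA1 and PXA2 were among them.

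Among 7 genes of peroxide removal and acetyl unit export 0 passed in edgeR, against 1.24% of all tested genes. An unadjusted p below 0.05 was held by 2, against 12.4%, and the median log2 fold change was 0.94. Catalases break down the hydrogen peroxide that the oxidases make. The catalase gene YALI0_E34749g is similar to CTT1, annotated as a cytosolic catalase. It was at 81.8 and 274 CPM in the deletion libraries and at 22.3 and 67.9 CPM in the parent libraries. It was higher in the deletion library in both tables, by 1.87 and 2.01 on the log2 scale, while the deletion libraries differed from each other by more than 3-fold (log2 fold change 1.98 ± 0.68, adjusted p = 0.272, edgeR). DESeq2 and edgeR with the table as a term called it (adjusted p = 0.0342 and 0.0416), the second calling 2.4% of all tested genes, and over all alternatives its adjusted p ran from 1.09e-06 to 0.792. Its log2 fold change was 2.60 with the transcript-table deletion library left out and 0.86 with the gene-table deletion library left out. The carnitine acetyltransferase gene YALI0_B10340g was at 402 and 537 CPM in the deletion libraries and at 228 and 262 CPM in the parent libraries (log2 fold change 0.94 ± 0.40, adjusted p = 0.389, edgeR). Another carnitine acetyltransferase gene, YALI0_F21197g, was at 0.98 ± 0.61, and the carnitine carrier-like gene YALI0_A20988g at -0.67 ± 0.41. The catalase gene YALI0_F30987g was at 366 and 91.7 CPM in the deletion libraries and at 438 and 301 CPM in the parent libraries. Its log2 fold change was below 0, at -0.69 ± 0.63, and the strains overlapped. A low CTT1-like gene, YALI0_E34265g, was at 0.98 ± 0.81, also with overlap.

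Of the 2 receptors that carry enzymes into peroxisomes, the targeting signal receptor gene YALI0_F28457g was at a log2 fold change of 0.41 ± 0.42 and PEX7 (YALI0_F18480g) at -0.36 ± 0.37. Neither passed in edgeR, also unadjusted. The glyoxylate cycle, which lets cells build sugars from acetyl-CoA, had 0 of 4 genes past the test in edgeR, against 1.24% of all tested genes. It had 1 at an unadjusted p under 0.05, against 12.4%, and a median log2 fold change of 0.03. The malate synthase gene YALI0_D19140g was at 14.2 and 88.2 CPM in the deletion libraries and at 14.0 and 13.7 CPM in the parent libraries. It stood apart in the deletion library of the gene table alone (log2 fold change 1.88 ± 0.74, adjusted p = 0.335, edgeR). It was at 0.039 without that library, and at 2.67 without the transcript-table deletion library. The isocitrate lyase gene YALI0_C16885g was at -0.48 ± 0.48 and the malate synthase gene YALI0_E15708g at 0.53 ± 0.58. YALI0_F31999g, similar to ICL2, which the annotation calls a non-functional isocitrate lyase, was at -0.61 ± 0.41 and counts among the 4. The 3 regulator genes, which are the kinase gene SNF1 (YALI0_D02101g), a gene weakly similar to Candida albicans MIG1 (YALI0_E07942g) and a gene similar to a cutinase transcription factor of Fusarium solani (YALI0_D12628g), lay between -0.14 and 0.10. Of these 3, 0 passed in edgeR and 0 were at an unadjusted p under 0.05, against 1.24% and 12.4% of all tested genes.

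**Figure D4:**
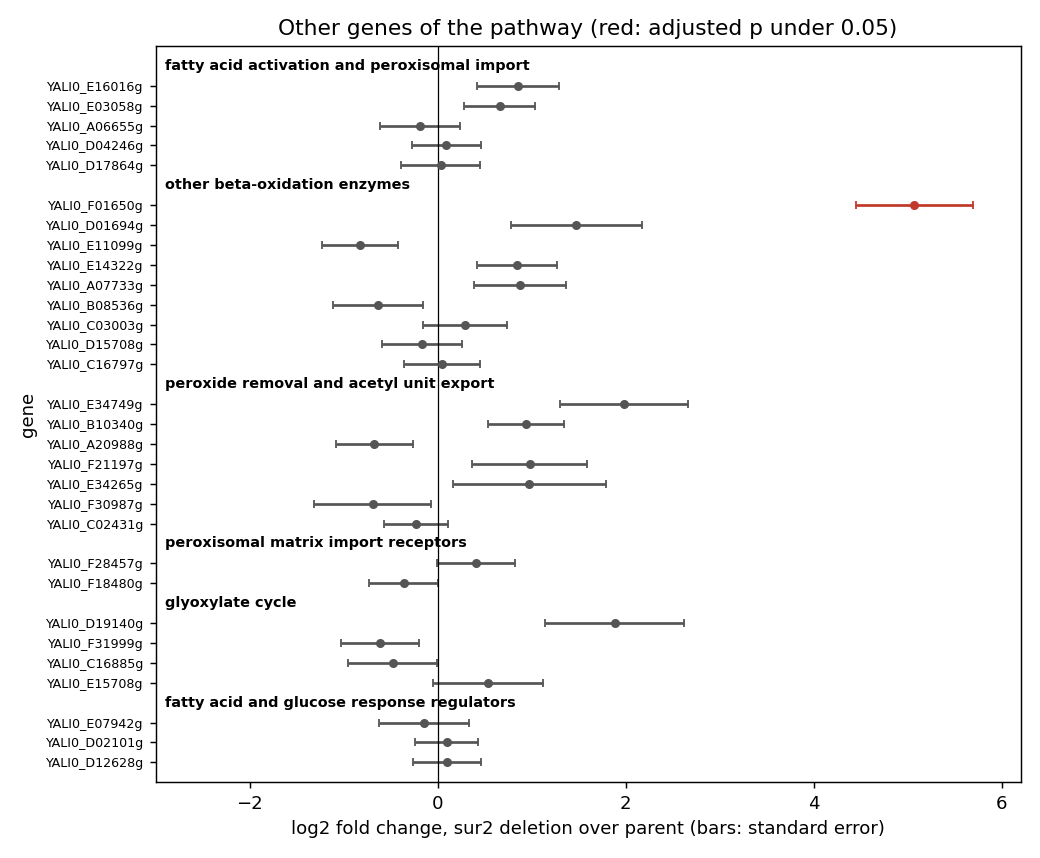
Log2 fold change of the 30 other pathway genes in the sur2 deletion strain over the parent strain, with approximate standard errors, by list and in order of p. The dienoyl-CoA reductase-like gene YALI0_F01650g, at 5.07, is the only gene past an adjusted p of 0.05.

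Genes whose pattern over the 4 libraries was most like that of the oxidases were sought among 3250 described genes with a mean of at least 10 TPM. The measure was the root mean square difference in centred log2(TPM + 1) from the mean profile of POX1 to POX6. The 5 nearest were YALI0_E21824g (weakly similar to PEP7, 0.0498), YALI0_F11385g (some similarity to the kinase KSP1, 0.0501), YALI0_E26433g (similar to ECM15, 0.0645), YALI0_F02233g (similar to GLC8, 0.0649) and YALI0_C14740g (weakly similar to GRR1, 0.0654). None of them was in the pathway lists. The distance of the oxidases from their own mean profile ran from 0.206 for POX1 to 0.592 for POX5, and MFE1 and POT1 lay at 0.670 and 0.695. The 5 genes were picked as the nearest, so their smaller distances are set by that choice. The 4 points of each profile share the depth and scaling of their library, so this is a description of these libraries.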

How the data were processed

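The authors deposited whole-number read counts and TPM values per gene, per the file headers, in 2 tables with 1 library of each strain. The 4 RPKM columns were not used. Libraries were made with a stranded mRNA kit, per the labels' protocols. For the aligner, the counting tool, the strand setting and the genome build no name is given in the sources used here. Coordinates are those of the deposited tables. Column names give the strain but not the labels' replicate number, so a library is called by its strain and its table. Counts were joined by gene identifier and tested with the quasi-likelihood test of edgeR 4.0.16 (R 4.3.3), with TMM factors, strain alone in the model and genes kept by filterByExpr. Tests were two-sided and adjusted by Benjamini-Hochberg over 6051 genes. DESeq2 1.42.0 and limma 3.58.1 on log2(TPM + 1) were alternatives. The tests were tried on simulated data whose planted changes were larger than those of the 8 genes and whose libraries varied less. That trial does not show how well changes of the size seen in the 8 genes are found. A count of 0.5 was added in ratios within a table. A count of 0 allows up to 3 reads, or 0.175 to 0.307 CPM. Genes of near-identical sequence may share reads. Named genes are the 8 members, up to 4 genes of lowest p in each list, and the 5 of most similar profile. The remaining catalase and SPS19-like genes of the lists are named beside them. Members, lists and tests were chosen with earlier results of these data known. Of the matches to the 6 pathway lists, 2 were removed because their annotation contradicted the list.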

Additional observations from a re-analysis of the deposited data

How the results depend on the processing

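The number of the 8 genes past the threshold, 0 with edgeR, was 1 with DESeq2 and 0 to 2 with 1 library left out. Over all genes 75 were called, against 116 with library totals, 386 with DESeq2, 178 and 204 with limma on log2(TPM + 1) and log2(TPM + 0.1), 145 with the table as a term, and 0 to 685 with 1 library left out. The 0 came without either parent library, with 414 and 361 genes at an unadjusted p under 0.05. The list of further beta-oxidation enzymes held 0 to 2 called genes and that of the glyoxylate cycle 0 to 1 with 1 library left out. The list of peroxide removal and acetyl export held 1 with DESeq2, 1 with the table as a term and 0 to 3 with 1 library left out. POX5 was at -1.50 with DESeq2 (adjusted p = 0.0286) and at -1.78 to -1.16 with 1 library left out. MFE1 ran from 0.38 to 1.64, POT1 from -0.68 to 1.43, POX2 from -0.54 to 0.56, POX6 from -0.20 to 0.90, POX3 from 0.07 to 0.92, POX1 from -0.55 to -0.03 and POX4 from -0.34 to -0.19 with 1 library left out. With limma on TPM with a pseudocount of 1 and of 0.1, POX1 was at 0.058 and 0.11, POX4 at 0.13 and 0.15, YALI0_A06655g at 0.26 and 0.27, YALI0_F18480g at 0.035 and 0.035 and YALI0_E07942g at 0.39 and 0.41, above 0 where edgeR gave values below 0. The median over all genes was then 0.39 and 0.43, and it was 0.21 with library totals. With the table as a term YALI0_E07942g was at 0.0083. With 1 library left out YALI0_A06655g ran from -0.59 to 0.33, YALI0_D04246g from -0.23 to 0.35, YALI0_F21197g from -0.043 to 1.57, YALI0_F28457g from -0.18 to 0.82, YALI0_E15708g from -0.73 to 1.19, YALI0_E07942g from -0.68 to 0.68 and YALI0_D12628g from -0.15 to 0.36. A lone library was then assumed to vary like those of the other strain. The cause of these changes was not tested. Isozyme shares moved by less than their SD with read counts in place of TPM. With 2 libraries a mean always moves by less than the SD when 1 is left out, so that alternative says nothing about the shares. Shares from RPKM were not run. No paired analysis was possible because the column names carry no replicate number of the labels, only Y1 and Y2, which the labels do not explain. That concerns replicate numbers alone, since the fit with the table as a term, given above, pairs the libraries by table. The median over the 8 genes ran from -0.37 to 0.58 over all alternatives. POX1, at 46 to 105 reads a library, is the gene most limited by depth.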
